A study of Mus musculus with 18 samples.

Results

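The 39 protein-coding Hox genes of the mouse were placed in the lamin B1, H3K9me3 and Foxa2 maps of the liver. They were taken as every protein-coding gene of the GENCODE mm10 annotation whose symbol is Hoxa, Hoxb, Hoxc or Hoxd followed by a number, out of 21951 protein-coding genes in all. The genes lie in 4 clusters. HoxA holds 11 genes at chr6:52155590-52260880, HoxB holds 10 at chr11:96194316-96368256, HoxC holds 9 at chr15:102921103-103036852 and HoxD holds 9 at chr2:74668310-74765142. Spans run from the first to the last base of the Hox genes of a cluster and sum to 492 kb.

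Hox genes encode homeodomain transcription factors that give cells of the embryo their position along the head to tail axis. Within a cluster the genes stand in the order in which they are used, with low paralogue numbers active early and toward the head and high numbers active late and toward the tail. Paralogues, such as Hoxa4 and Hoxb4, share a number across clusters. In cells where they are silent the clusters are a textbook target of Polycomb complexes and their H3K27me3 mark, which were not measured here. Lamin B1 is a protein of the nuclear lamina, the meshwork under the nuclear envelope that contacts large, mostly silent domains. H3K9me3 is the trimethylated lysine of histone H3 that marks heterochromatin. Foxa2 is a forkhead transcription factor that opens liver enhancers.

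The study profiled liver chromatin of male C57BL/6 mice by ChIP-seq. Lamin B1, H3K9me3 and H3K9me2 were each profiled in young mice of 3 months and old mice of 21 months, with 2 replicates per age, and H3K9me2 was not analysed here. Foxa2 was profiled at 12 weeks in 3 wild-type livers and 3 livers of Zmpste24 knockout mice, which lack in the whole body the protease that matures prelamin A and serve as a model of premature aging. Chromatin came from whole liver, so cells other than hepatocytes contributed. As a check of the tissue, 8 of 10 hepatocyte genes fixed as markers, among them Alb and Ttr, had a Foxa2 site within 50 kb of the gene in wild type, and 8 of 10 in the mutant, beside 30.6% and 38.5% of all protein-coding genes. By gene body, 4 and 6 of the same 10 genes overlapped lamin B1 domains in young and old liver, beside 38.8% and 64.8% of all genes. H3K9me3 regions overlapped 0 and 0 of them, beside 16.5% and 29.6%.

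Each of the 6 maps is 1 list of called regions made from merged replicates, with positions and no score. The lists give neither the read depth nor the replicate spread behind a call, so every value below is a description without a test, and the only errors given are counting intervals for the Foxa2 site densities. The 39 genes occupy only 4 places, so genes of 1 cluster share regions and are not independent of each other. The young lamin B1 list held 1624 domains with a median of 200 kb that covered 17.6% of the genome, and the old list held 1519 domains with a median of 340 kb that covered 35.1%. The young and old H3K9me3 lists held 2784 and 2496 regions and covered 21.7% and 23.3%. By the study's own account the merged libraries held more lamin B1 reads in young liver and more H3K9me3 reads in old liver, and the part of this in the age differences below was not tested.

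All 39 Hox genes touched a lamin B1 domain in old liver, and 32 did in young liver. A gene touched a domain when at least 1 bp of its body, from first to last annotated base, overlapped it. Over all protein-coding genes the shares were 38.8% in young and 64.8% in old liver. No Hox gene was in a domain in young liver only, a state held by 4.14% of all genes, or at neither age, a state held by 31.1%, and 32 were in domains at both ages, against 34.7%. The remaining 7 were in a domain in old liver only, a state held by 30.1%. They were Hoxb13, Hoxb2 and Hoxb1 at the ends of HoxB, and Hoxc13, Hoxc12, Hoxc11 and Hoxc10 in the posterior part of HoxC.

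H3K9me3 regions touched 21 Hox genes in young and 34 in old liver, beside 16.5% and 29.6% of all protein-coding genes. Of these, 19 were marked at both ages, where the share over all genes was 9.78%. In old liver only, 15 were marked: all 9 Hoxc genes and the 6 genes from Hoxb1 to Hoxb6 (19.8% of all genes). In young liver only, 2 were marked, both in HoxA and with Hoxa2, a hindbrain patterning gene, among them (6.76% of all genes). The 3 neighbours Hoxb7, Hoxb8 and Hoxb9 were in no H3K9me3 region at either age, which was the state of 63.6% of all genes.

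Lamin B1 and H3K9me3 coincided on 20 Hox genes in young liver, beside 6.72% of all genes, and on 34 in old liver, beside 25.6%. The old count repeats the 34 genes in old H3K9me3 regions, because all 39 touched an old lamin B1 domain. A body in all 4 broad lists was found for 18 Hox genes, 9 of HoxA and 9 of HoxD, beside 3.87% of all genes. No gene of HoxB or HoxC was in all 4. Counting start sites in place of bodies gave 30, 39, 21 and 33 genes in the young lamin B1, old lamin B1, young H3K9me3 and old H3K9me3 lists, beside 36%, 62.2%, 12.9% and 24.3% of all start sites. With at least 50% of the body inside, the counts in the same order were 32, 39, 21 and 32, beside 35.8%, 61.4%, 12.8% and 25.3% of all genes. With the whole body inside 1 region they were 30, 39, 21 and 30, beside 32.8%, 59.1%, 9.91% and 21.1%.

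**Figure D1:**
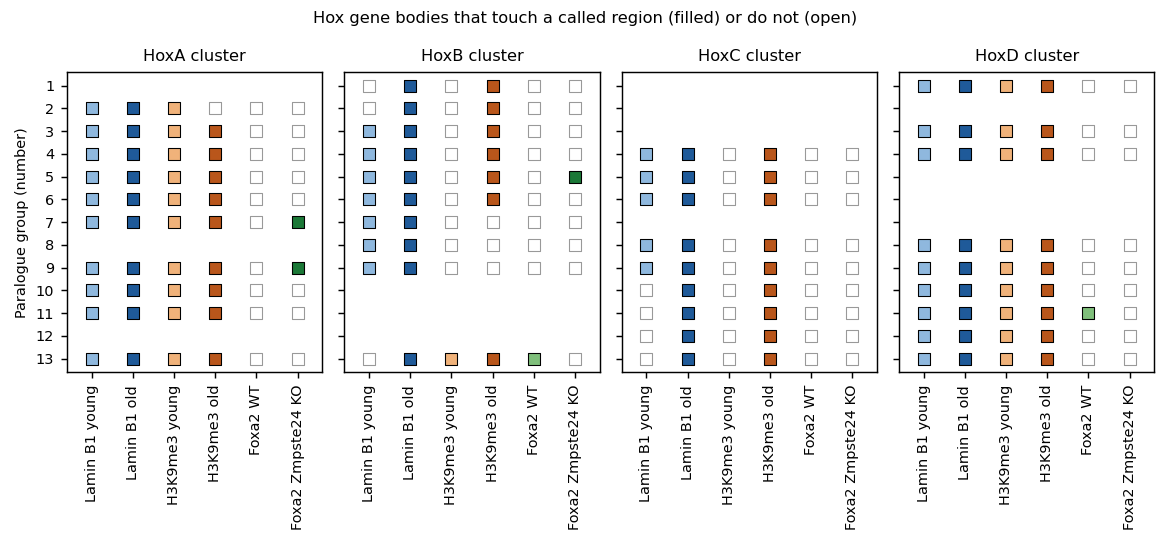
Grid of 38 of the 39 Hox genes by cluster (panels) and paralogue group (vertical axis, number 1 at the top), with 1 column per list of called regions. Filled squares are gene bodies that touch a region and open squares those that do not. The old lamin B1 column is filled for all 38 genes drawn, and the young H3K9me3 column is filled throughout HoxA and HoxD, for Hoxb13 alone in HoxB and for no gene in HoxC.

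Neighbours in a cluster mostly shared their calls, which the region lengths over the clusters, 60 kb to 770 kb, largely build in. Paralogues with the same number lie on different chromosomes and often differed in their calls. All 4 group 13 genes, for example, encode factors of the hindmost body and the limb tip, yet their states differed. Hoxa13 and Hoxd13 were in all 4 broad lists. Hoxb13 had H3K9me3 at both ages and lamin B1 in old liver only. Hoxc13 had both marks in old liver only. At the other end, Hoxb1 was called for both marks only in old liver, and Hoxd1 was in all 4 lists. Of the 8 anterior genes (groups 1 to 3), 6 and 8 touched lamin B1 domains in young and old liver and 5 and 6 touched H3K9me3 regions. Of the 15 central genes (groups 4 to 8), 15 and 15 touched lamin B1 and 6 and 13 touched H3K9me3. Of the 16 posterior genes (groups 9 to 13), the counts were 11 and 16 for lamin B1 and 10 and 15 for H3K9me3. Over all protein-coding genes the shares were 38.8% and 64.8% for lamin B1 and 16.5% and 29.6% for H3K9me3. The counts also reflect the cluster a gene lies in: all 6 central genes in young H3K9me3 regions belong to HoxA or HoxD.

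HoxA was inside lamin B1 domains at both ages and lost part of its H3K9me3 in the old list. Its 11 genes lie on the minus strand, with Hoxa13 at the high coordinate. The young lamin B1 domain at chr6:51820001-52320000 was 500 kb long and the old one at chr6:52020001-52590000 was 570 kb long, and each held all 11 genes whole. Between the ages the domain moved toward the group 13 side: it reached 59.1 kb past the Hoxa13 end in young liver and 329 kb in old liver, while on the opposite side its reach went from 336 kb to 136 kb. The young H3K9me3 region at chr6:52080001-52550000 spanned the whole cluster. The old one at chr6:52190001-52540000 covered 67.3% of it and ended inside the Hoxa4 body, 1.75 kb from the Hoxa4 start site. Hoxa4 was left 84.2% covered and Hoxa2 was left outside. Hoxa3 counted as touched because its annotated body, stretched by long upstream transcripts, was 52.7% covered, although its coding part lay outside the old region.

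HoxB was the cluster with the most internal borders. In young liver a lamin B1 domain of 100 kb at chr11:96250001-96350000 held the 7 genes from Hoxb9 to Hoxb3. It ended 0.525 kb before the Hoxb2 start site, and began 21.5 kb before that of Hoxb9. Of all young domains, 14% were shorter. In old liver 1 domain of 770 kb at chr11:95760001-96530000 took in the whole cluster. Lamin B1 thus covered 57.5% of the cluster in young and 100% in old liver. H3K9me3 in young liver was a region of 60 kb around Hoxb13, at chr11:96160001-96220000, which covered 14.8% of the cluster. In old liver there were 2 regions over the cluster, chr11:96140001-96260000 with Hoxb13 and chr11:96300001-96460000 with Hoxb1 to Hoxb6, and together they covered 77%. The gap between them held Hoxb7, Hoxb8 and Hoxb9. Hoxb6 was cut by the edge of the second region, with 17.3% of its body inside and its start site outside.

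HoxC carried the largest change in H3K9me3 coverage among the clusters, from 0% in young to 85.4% in old liver. The old region at chr15:102650001-103020000 was 370 kb long, longer than 81.7% of its list. It ended 1.07 kb past the Hoxc4 start site, with 5.95% of the Hoxc4 body inside and its coding part outside. Lamin B1 in young liver lay over the group 4 end, at chr15:102980001-103240000, covered 49.1% of the cluster and began inside the Hoxc9 body, 3.56 kb past its start site. In old liver the domain at chr15:102880001-103210000 held the 9 genes whole. The Hoxc5 body also carries a long upstream transcript that runs over Hoxc10 to Hoxc6, so its start site was outside the young domain while 74.9% of its body was inside.

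The calls over HoxD did not change within the cluster. All 9 genes were whole inside a region in each of the 4 broad lists, with 100% of the span covered each time. Only the outer borders moved. The lamin B1 domain went from chr2:74490001-74770000 in young liver to chr2:74630001-74800000 in old liver, 280 kb against 170 kb. The H3K9me3 region kept its border at the group 13 side, 78.3 kb outside the cluster, and ran to 34.9 kb beyond Hoxd1 in young and 4.86 kb beyond it in old liver.

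**Figure D2:**
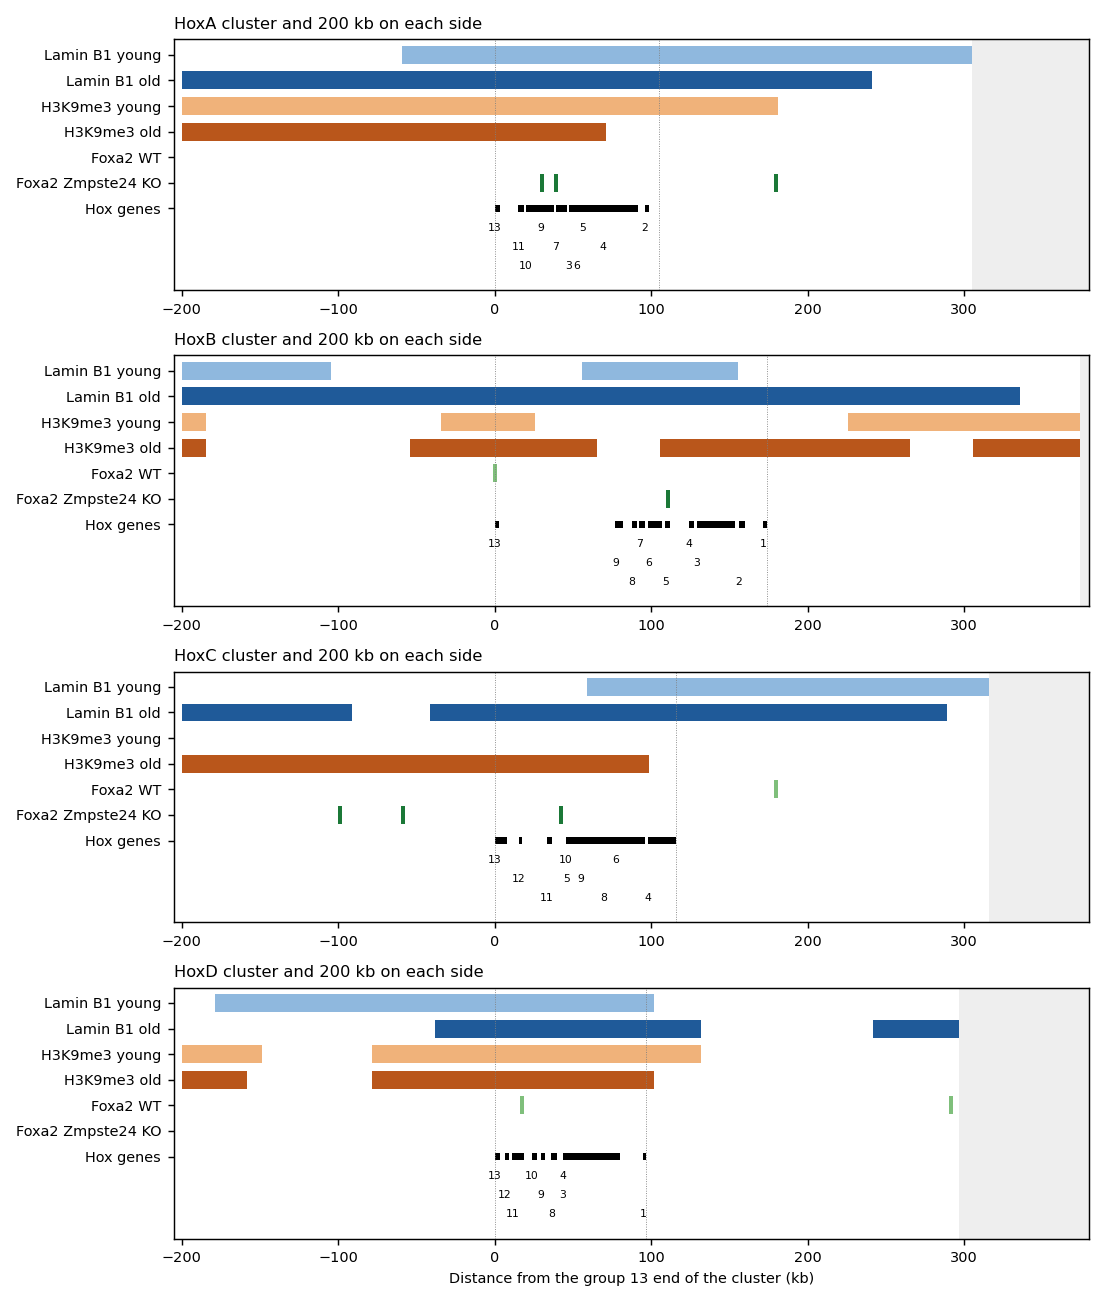
Map of the 4 clusters with 200 kb on each side. The horizontal axis is the distance in kb from the group 13 end, negative outside the cluster, coloured bars are called regions, black bars are the bodies of the same 38 Hox genes and the numbers below mark the start site of each paralogue, and dotted lines mark the cluster ends. Old lamin B1 spans every cluster, old H3K9me3 stops within HoxA and within HoxC, and it leaves a gap over Hoxb7 to Hoxb9.

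On windows of 10 kb, the grid on which the borders of all regions in the broad lists fell, the 4 clusters took up 53 windows. Lamin B1 was called in 39 of them at both ages (73.6%, genome 12.2%) and in old liver only in 14 (26.4%, genome 22%). No window had it in young liver only (genome 4.93%). H3K9me3 was called at both ages in 22 windows (41.5%, genome 8.94%), in old liver only in 21 (39.6%, genome 13.7%) and in young liver only in 4 (7.55%, genome 12.2%), all 4 of them in HoxA. Both marks at both ages held 19 windows, 8 in HoxA and 11 in HoxD, or 35.8% of the windows against 1.72% of the genome.

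The flanks differed between the sides of a cluster. The lamin B1 share of the 200 kb flanks, both sides of all clusters together, was 46.1% in young and 71.8% in old liver, and the H3K9me3 share was 39.9% and 47.2%. HoxA had H3K9me3 over 100% of its group 13 side at both ages, and over 37.8% and 0% of its group 1 side. HoxC in old liver had it over 100% of the group 13 side and 0% of the other. HoxD had 65% and 60% on the group 13 side against 17.4% and 2.43%. HoxB had the opposite order, with 25% and 35% on the group 13 side against 74.1% and 80% on the group 1 side. The HoxD flanks also lost and gained lamin B1 on different sides, from 89.2% to 19.2% on the group 13 side and from 2.43% to 45% on the group 1 side. These sides of HoxD are known to hold separate sets of limb enhancers.

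**Figure D3:**
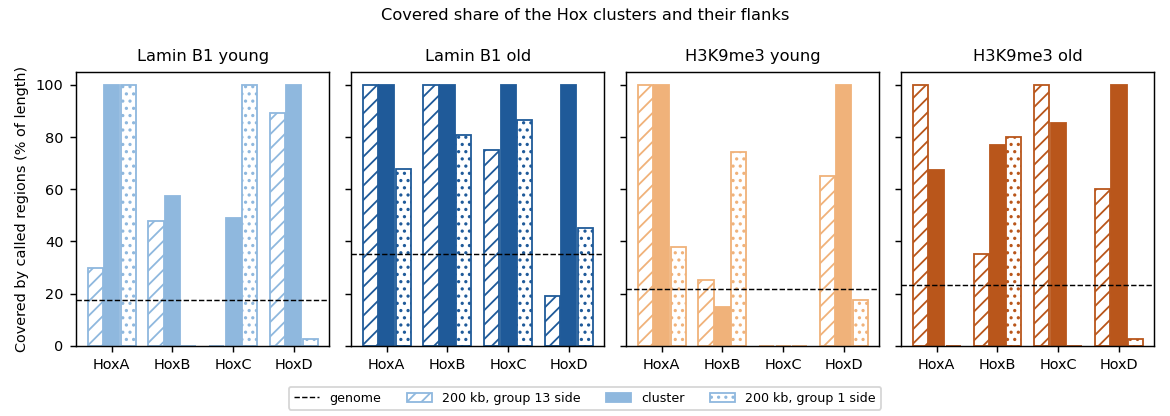
Covered share in percent of length for each cluster (solid bars), for the 200 kb on its group 13 side (hatched) and on its group 1 side (dotted), 1 panel per broad list, with the covered share of the genome as a dashed line. In the old lamin B1 list all 4 solid bars stand at 100%, and in the young H3K9me3 list HoxA and HoxD stand at 100%, HoxB at 14.8% and HoxC at 0%.

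Of 16 protein-coding genes in the flanks, 12 touched a lamin B1 domain in young and 14 in old liver, and 5 and 6 touched an H3K9me3 region, beside 38.8%, 64.8%, 16.5% and 29.6% of all protein-coding genes. Evx1 and Evx2, the even-skipped homeobox genes beside Hoxa13 and Hoxd13, were the flank genes found in all 4 lists with their whole bodies. Igf2bp1, which encodes an RNA-binding protein, and Skap1, a T-cell adaptor gene, also touched all 4, with 32.7% of Igf2bp1 and 3.1% of Skap1 inside young lamin B1 domains. Lnpk, which shapes the endoplasmic reticulum, was in a lamin B1 domain in young liver only, and Mtx2, a mitochondrial outer membrane gene, was in none of the lists. Calcoco2 and Ttll6 beside HoxB and Calcoco1 beside HoxC entered lamin B1 domains in the old list. Cbx5 encodes HP1 alpha, a reader of methylated H3K9. Its body was whole in a lamin B1 domain in young liver and 38.2% covered in old liver, where its start site was outside, and it had no H3K9me3 at either age. Skap2 kept 46.8% of its body in the old lamin B1 domain. Gip, Snf8, Ube2z and Atp5g1 beside HoxB and Smug1 beside HoxC stayed inside lamin B1 domains at both ages without H3K9me3.

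The clusters also encode noncoding RNAs, including those of 6 microRNA genes. MicroRNAs of the miR-10 and miR-196 families repress messenger RNAs, those of Hox genes among them, through their seed, bases 2 to 8 of the mature strand. The 5p strands of miR-10 and miR-196 are shown because paralogous clusters carry the same seed under different calls. That of miR-615, which shares its seed with none of the others, is shown to complete the set. Sequences are from RefSeq (GRCm38.p6), with the seed in capitals.
mmu-miR-10a-5p: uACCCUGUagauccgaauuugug
mmu-miR-10b-5p: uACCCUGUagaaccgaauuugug
mmu-miR-196a-5p: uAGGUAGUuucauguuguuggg
mmu-miR-196b-5p: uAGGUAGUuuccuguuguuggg
mmu-miR-615-5p: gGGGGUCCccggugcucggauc

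The pair with seed ACCCUGU was split by age: Mir10b in HoxD was in all 4 broad lists, while Mir10a in HoxB was in lamin B1 domains at both ages and in an H3K9me3 region in old liver only. Among the genes with seed AGGUAGU, Mir196b in HoxA was in all 4 lists. Mir196a-1 in HoxB was in lamin B1 domains at both ages and in no H3K9me3 region. Mir196a-2 in HoxC, which gives the same mature 5p strand as Mir196a-1, was in both marks in old liver only. Mir615, which lies within the Hoxc5 gene, was in lamin B1 domains at both ages and in H3K9me3 in old liver only. Over the 6 genes the counts were 5 and 6 for lamin B1 and 2 and 5 for H3K9me3. All 6 lie inside the cluster spans, and no share over all microRNA genes was computed.

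All 15 noncoding genes examined at the clusters, microRNA genes included, were in lamin B1 domains in old liver and 13 in young liver, and 8 and 12 were in H3K9me3 regions. No share over all noncoding genes was computed. All but Hottip lie inside the cluster spans, so the counts largely repeat the coverage of the spans. That coverage was 73% and 100% for lamin B1 and 46.3% and 81.4% for H3K9me3 in young and old liver. Hotair, a long noncoding RNA of HoxC, was in both marks in old liver only. Hottip, next to Hoxa13, was in all 4 lists. Hotairm1, a long noncoding RNA gene of HoxA, was in lamin B1 domains at both ages and in H3K9me3 in young liver only, as was Hoxa2.

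Foxa2 sites stood at a few Hox genes in each genotype. The wild-type list had 4960 sites and the mutant list 8177, with the mutant reads reduced by the authors to the wild-type number before calling. Within the clusters and their 200 kb flanks lay 4 wild-type and 7 mutant sites, 1.91 and 3.35 per Mb (95% exact Poisson intervals 0.521 to 4.9 and 1.35 to 6.89, which cover counting error only). The genome held 1.87 and 3.09 per Mb, both inside those intervals. None of the 11 sites overlapped a site of the other genotype or came within 500 bp of one. Among all sites, 72.2% of the wild-type and 82.9% of the mutant sites had no site of the other genotype within 500 bp, so most sites of both lists were unshared. Inside the clusters there were 2 wild-type and 4 mutant sites, 4.07 per Mb (0.492 to 14.7) and 8.13 per Mb (2.22 to 20.8), and both intervals again held the genome value.

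The 2 wild-type sites inside the clusters were at Hoxb13 and Hoxd11. The first, chr11:96194015-96195284, covered the Hoxb13 start site and reached into its coding exon. The second, chr2:74685054-74686083, overlapped a noncoding exon of Hoxd11, 6.01 kb from its start site. The 4 mutant sites inside were at chr6:52220690-52222042 over the annotated Hoxa7 start site, at chr6:52229768-52231114 over that of Hoxa9, at chr11:96305065-96305691 in an exon of Hoxb5, and at chr15:102963140-102963808 between genes, 3.32 kb from the Hoxc10 start site. The site at Hoxa9 also contained the whole Mir196b hairpin. The RefSeq start sites of Hoxa7 and Hoxa9 lie 3281 bp and 3719 bp away from the GENCODE ones, outside the mutant sites, so which start the sites mark depends on the annotation. Over all sites, 8.37% of the wild-type and 3.13% of the mutant sites covered a protein-coding start site.

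A stretch of 101 bp is shown for 5 of these sites and for 1 flank site. The deposited sites have no summit, so the stretch is centred on a forkhead word where the site holds one and on the middle of the site otherwise. Capitals mark the words TGTTTAC or TATTTAC on either strand, 2 forms of the forkhead core that do not overlap each other here, and sequences are the plus strand of GRCm38.p6. The Hoxb5 site and the other flank sites are not shown, among them the wild-type site without a word, chr2:74959456-74960206. Through this choice and the centring, every wild-type stretch shown holds a word, so the stretches cannot compare the genotypes.
Hoxb13, wild type, chr11:96195120-96195220: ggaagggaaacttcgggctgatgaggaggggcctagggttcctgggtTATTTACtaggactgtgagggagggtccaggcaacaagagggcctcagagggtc
Hoxd11, wild type, chr2:74685279-74685379: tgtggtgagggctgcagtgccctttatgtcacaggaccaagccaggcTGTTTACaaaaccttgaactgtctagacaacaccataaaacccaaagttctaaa
HoxC flank, wild type, chr15:103100775-103100875: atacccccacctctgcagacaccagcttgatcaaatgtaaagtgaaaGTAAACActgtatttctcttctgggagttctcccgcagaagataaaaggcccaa
Hoxa7, mutant, chr6:52221316-52221416: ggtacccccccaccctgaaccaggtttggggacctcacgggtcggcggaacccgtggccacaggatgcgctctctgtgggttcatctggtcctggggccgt
Hoxa9, mutant, chr6:52230391-52230491: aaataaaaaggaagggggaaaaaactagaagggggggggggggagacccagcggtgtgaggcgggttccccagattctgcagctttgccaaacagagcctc
Hoxc10, mutant, chr15:102963424-102963524: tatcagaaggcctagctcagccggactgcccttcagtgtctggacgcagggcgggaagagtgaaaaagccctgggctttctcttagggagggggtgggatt

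Over the whole length of the sites, 3 of the 4 wild-type sites held at least 1 of the words and 0 of the 7 mutant sites did. Among all sites of the lists the shares were 43.8% and 40.8%. In the central 300 bp the count was 1 of 4 and 0 of 7, beside 22.6% and 19% of all sites. A word is a match of letters and not evidence of binding, and other forms of the motif were not searched. The GC content of the mutant sites shown was 53.9% at Hoxa7, 60.9% at Hoxa9 and 50.4% at Hoxc10, and that of the wild-type sites was 59.7% at Hoxb13, 39.6% at Hoxd11 and 39.1% in the HoxC flank.

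The flank sites stood far from the Hox genes. In wild type they were chr15:103100655-103101040, 81.9 kb from the Hoxc4 start site with Smug1 as the nearest gene, and chr2:74959456-74960206, nearest to Mtx2. In the mutant they were chr6:52080242-52081561, nearest to Skap2, and the pair chr15:102821836-102823019 and chr15:102861918-102863256, 98.7 kb and 58.5 kb from the Hoxc13 start site. Foxa2 sites overlapped 2 Hox gene bodies in wild type and 3 in the mutant, 5.13% and 7.69%, beside 10.6% and 13.5% of all protein-coding genes. Counted within 50 kb of the body, 9 Hox genes had a wild-type site and 25 a mutant site, beside 30.6% and 38.5% of all genes. Within 10 kb the counts were 4 and 9, beside 15.9% and 20.1%. The count of 25 rests on few sites, since 1 site within a cluster lies within 50 kb of many Hox genes.

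Sequence composition set the clusters apart from their flanks. The clusters had 49.3% GC, against 43.5% in the flanks and 41.7% in the genome, and a CpG observed over expected ratio of 0.401, against 0.228 and 0.19. Repeat-masked bases made up 18.2% of the clusters, against 28.6% and 36.4%. The regions of the broad lists had 44.1% GC in young and 45.9% in old lamin B1, and 40.7% and 44.8% in young and old H3K9me3. HoxB had the lowest CpG ratio of the clusters at 0.349 and the most masked sequence at 24.6%. The values were 0.357 and 15.9% for HoxC, 0.46 and 14.4% for HoxD, and 0.477 and 13.4% for HoxA. What part base composition had in the calls was not tested.

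RefSeq promoters (GRCm38.p6, 250 bases before to 50 after the start) could be matched for 22 of the 39 Hox genes. Most of the 22 lie in HoxA and HoxD, the clusters with the higher CpG ratios. Some matched starts lie far from the GENCODE start, 15461 bp for Hoxc4 and 10049 bp for Hoxd4. The median GC of the 22 promoters was 56.8% and their median CpG ratio 0.594, against 52.7% and 0.384 over 32851 promoters. The forkhead word TGTTTAC on either strand was in 0 of the 22, beside 3.65% of all promoters. The GATA factor word AGATAA was in 0 of the 22, beside 11.2%. The part before the start is shown for Hoxa2, whose H3K9me3 call was in young liver only, and Hoxb4, whose call was in old liver only, on the strand of the gene with CpG in capitals. The upstream part of Hoxa2 held 6 CpG and that of Hoxb4 held 14. Hoxb1 and Hoxc4, the other matched genes called in old liver only, held 7 and 8, so the pair shown cannot compare the directions.
Hoxa2, chr6:52164832-52165081, minus strand: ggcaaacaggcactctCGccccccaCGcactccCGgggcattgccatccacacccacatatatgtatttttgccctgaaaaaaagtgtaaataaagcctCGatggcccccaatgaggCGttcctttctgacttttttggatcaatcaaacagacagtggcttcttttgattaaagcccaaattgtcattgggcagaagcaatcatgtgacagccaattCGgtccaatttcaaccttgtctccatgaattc
Hoxb4, chr11:96318017-96318266, plus strand: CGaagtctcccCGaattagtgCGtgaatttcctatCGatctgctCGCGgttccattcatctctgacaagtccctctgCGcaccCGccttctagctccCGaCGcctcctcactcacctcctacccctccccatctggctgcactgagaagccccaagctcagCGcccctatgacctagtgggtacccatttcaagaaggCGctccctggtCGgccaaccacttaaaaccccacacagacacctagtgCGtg

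Genes that act with or upon Hox genes, and sister genes of the Hox family, were counted in the same way. Their counts are read beside the same shares of all protein-coding genes, 38.8% and 64.8% for young and old lamin B1 and 16.5% and 29.6% for young and old H3K9me3. TALE homeodomain proteins bind DNA together with Hox proteins, and of their 9 genes 5 touched lamin B1 domains in young and 8 in old liver, and 0 and 6 touched H3K9me3 regions. Meis3 was called for both marks in old liver only, and Pknox2 for lamin B1 in old liver only. The ParaHox genes are an ancient sister family active in gut, pancreas and brain, and of the 6 genes 4 and 5 touched lamin B1 domains and 3 and 4 touched H3K9me3. Cdx1 entered a lamin B1 domain in the old list and Pdx1, the pancreas gene, entered an H3K9me3 region. Of 19 Polycomb genes, which encode the repressors that keep Hox genes off, 10 and 15 touched lamin B1 and 2 and 8 touched H3K9me3, which is 52.6% and 78.9%, and 10.5% and 42.1%. Bmi1 and Suz12 were in lamin B1 domains in young liver only, and Cbx2 was called for both marks in old liver only. Of 7 Trithorax genes, which encode activators of Hox genes, 5 and 7 touched lamin B1, with Rbbp5 and Wdr5 in old liver only, and 0 and 1 touched H3K9me3, the 1 being Ash2l. Of the 3 retinoic acid receptor genes, whose products switch on anterior Hox genes, 3 and 2 touched lamin B1. Rarb lost its lamin B1 call and gained an H3K9me3 call, both counted by its body. By start sites the 3 genes gave 2 and 2 for lamin B1 and 0 and 0 for H3K9me3.

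A list of other homeobox families held 56 genes of the Dlx, Emx, En, Irx, Lhx, Msx, Nkx, Pax and sine oculis families. It was taken by symbol, without a check that each gene has a homeobox. Of these genes, 16 and 52 touched lamin B1 domains in young and old liver and 13 and 37 touched H3K9me3 regions. The share of these genes in young lamin B1 domains, 28.6%, was below the 38.8% of all genes. In old liver both sets were near their full number in lamin B1, 100% of Hox and 92.9% of the listed genes of other families. In young liver the shares were 82.1% and 28.6%. Dlx3, Dlx4 and Emx1 were called for both marks in old liver only, and Dlx6 for lamin B1 in old liver only. The difference between the sets was not tested, as the genes of each share loci. Of 54 Hist1h genes, another clustered family, 13 and 0 touched lamin B1 and 6 and 0 touched H3K9me3, the opposite direction with age, with Hist1h1b, Hist1h2af and Hist1h2an in lamin B1 domains in young liver only.

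**Figure D4:**
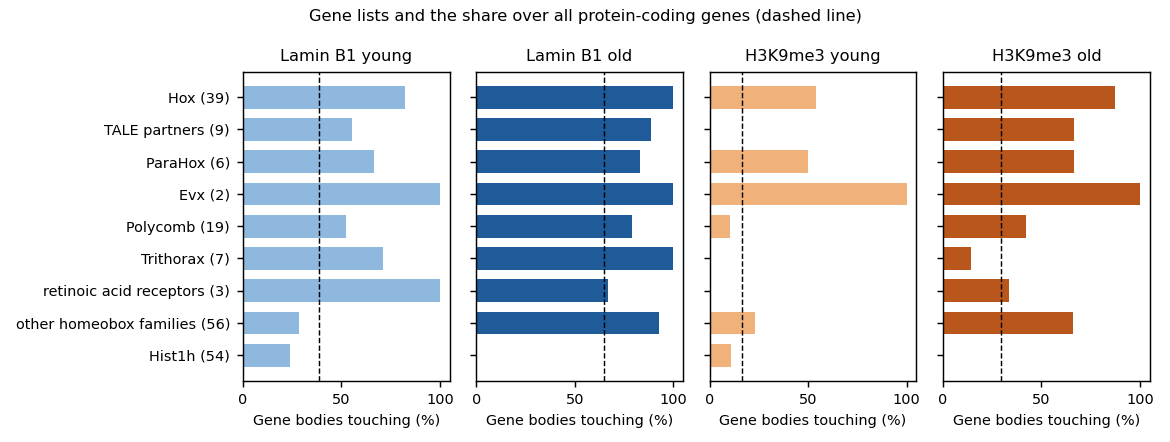
Share of gene bodies in percent that touch a called region, for the Hox genes and 8 comparison lists (number of genes in parentheses), 1 panel per broad list, with the share over all protein-coding genes as a dashed line. The Hox bar passes the line in every panel, and the Hist1h bar is at 0% in both old lists.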

How the data were processed

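The deposited files are lists of the authors' called regions, with start and end positions in mm10 and no score, read count or p-value. Per the methods and labels, reads were aligned with BWA, duplicates and reads with several alignments were removed and replicates were merged. Lamin B1 domains were called with Epic (10 kb windows, gaps of 3) and Foxa2 sites with PeakSeq against input, with mutant reads downsampled. SICER is named in the submitters' processing notes, and the settings used for H3K9me3 are not given in the sources used here. The age of the H3K9me3 lists is known from their names alone, and the number of their regions is not the one the study describes. H3K9me2 was not analysed here.

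Regions were intersected with GENCODE vM21 genes (Python 3.11.15). A gene touched a region by at least 1 bp of its body. Intervals came from scipy 1.17.1. The overlap code was tested on simulated regions. The rule for named genes took all Hox genes, protein-coding genes in the 200 kb flanks, noncoding genes of the clusters, the genes nearest to Foxa2 sites and up to 3 genes per list, in alphabetical order, whose call differed between ages. Members and lists were chosen with earlier results of these data known. Start sites, coding spans, trimmed regions, other flanks and other Foxa2 distances were tried as alternatives. No test was run. Some single-gene results are not reported here.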

Additional observations from a re-analysis of the deposited data

How the results depend on the processing

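Of the alternatives to 88 values, 153 left the value within its limit, 35 moved it and 0 reversed it. Most of the 88 values are counts or covered shares in 1 list, which cannot reverse. The 0 therefore does not bear on directions with age. With 10 kb trimmed from each end of a region, the gain of Hox genes in H3K9me3 from young to old was 8 in place of 13. With flanks of 50 kb the covered shares for HoxA were 100% (young lamin B1, old lamin B1 and young H3K9me3). For HoxB they were 0% and 100% for young and old lamin B1 and 34.3% and 100% for young and old H3K9me3. For HoxC old lamin B1 it was 91.1%, and for HoxD 73.2% (old lamin B1), 84.9% (young H3K9me3) and 54.9% (old H3K9me3). With flanks of 500 kb the shares were 39.5% (HoxA, young lamin B1), 46.5% (HoxA, young H3K9me3), 33.4% (HoxB, young H3K9me3), 34.2% (HoxC, young lamin B1), 27.1% (HoxC, old H3K9me3) and 67% (HoxD, old H3K9me3). The direction with age depended on flank width. HoxD lamin B1, both sides together, went from 45.8% in young to 32.1% in old liver at 200 kb. It went from 54.9% to 73.2% at 50 kb and from 36.5% to 42.8% at 500 kb. HoxD H3K9me3 went from 41.2% to 31.2% at 200 kb, from 84.9% to 54.9% at 50 kb and from 46.5% to 67% at 500 kb. HoxA H3K9me3 went from 68.9% to 50% at 200 kb and from 46.5% to 46.9% at 500 kb. Wild-type Foxa2 sites numbered 2 inside the clusters, 2 within 50 kb, 10 within 500 kb and 2 among sites wider than the median, and mutant sites 4, 4 and 13 for the first 3. The Foxa2 distance was also set to 10 kb in place of 50 kb. ParaHox (6 genes) then had 1 wild-type and 2 mutant genes in place of 3 and 4. Evx (2 genes) had 0 wild-type in place of 1, and Polycomb (19 genes) had 5 and 5 in place of 8 and 8. The other homeobox families (56 genes) had 7 wild-type in place of 17, and Hist1h (54 genes) had 13 and 11 in place of 34 and 39. Over all protein-coding genes the shares were 15.9% and 20.1% within 10 kb and 30.6% and 38.5% within 50 kb. By start sites, old H3K9me3 held 5 Polycomb genes and 0 retinoic acid receptor genes, in place of 8 and 1 by bodies. The share over all start sites was 24.3%. The cause of these moves was not tested, beyond the narrower or wider span that each alternative sets.

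Over coding spans of the transcripts in the CCDS set, chosen after seeing the data (all coding sequence for Hoxa13, the 1 gene without such a transcript), the 39 Hox genes gave 32, 39, 21 and 32 in the order young and old lamin B1, young and old H3K9me3. No paired analysis was possible because the lists merge the replicates, and for the same reason no replicate could be left out. The limit that read depth sets on a call cannot be measured from positions.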
